A study of Mus musculus with 18 samples.

Results

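Translation initiation factors bring the small ribosomal subunit, the initiator tRNA and the capped end of an mRNA together, and the 4E-binding proteins (4E-BPs) restrain the cap-binding step. The genes described here are the mouse genes with a symbol that begins with Eif and a digit, a set that takes in the factors, the 4E-BPs and the eIF2alpha kinases. They were found as probe sets annotated to 1 such gene: 133 of 45101 probe sets, for 47 of 18194 genes. A filter on low values kept 117 of the probe sets and 46 of the genes, among 27292 probe sets and 12793 genes kept in all. The gene left out is Eif4a3. A further 6 probe sets name such a gene together with another gene and were not used, so Eif4ebp3, which encodes 4E-BP3, is not analysed here.

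The series set 9 normal mouse prostates, labelled as ventral and dorsolateral lobes, against 9 tumours of the TRAMP mouse, the Transgenic Adenocarcinoma of the Mouse Prostate. As general background, TRAMP mice carry viral oncoproteins driven by a prostate promoter, so the transgene follows the epithelium in which that promoter is active. Age, strain background and treatment are not given in the sources used here, and nothing in the labels says that samples came from separate animals, and the p-values therefore reflect only how far these samples scatter, which may be technical. Each sample was measured on 1 Affymetrix array, and levels are log2(signal + 16), with SD over 9 arrays unless stated.

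As background on the pathway, eIF4E binds the mRNA cap, eIF4G is the scaffold that joins it to the helicase eIF4A, and eIF3 links the assembly to the small ribosomal subunit. 4E-BPs occupy the site on eIF4E that eIF4G needs, and the kinase complex mTORC1 releases them by phosphorylation. In a second control, eIF2 delivers the initiator tRNA, eIF2B recycles eIF2, and the eIF2alpha kinases slow that recycling under stress.

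Labels were checked against marker genes before the comparison. Normal prostate 9 did not look like the other normal arrays: the mean level of 7 prostate secretory genes was 6.73 on it and 12.10 to 13.77 on the other 8. The mean of 6 seminal vesicle genes was 12.09 on normal prostate 9, at most 7.85 on the other normal arrays, and 15.08, 15.57 and 14.98 on tumours 3, 5 and 7. Tumours 1, 4 and 9 carried the neuroendocrine gene Chga at 11.50, 9.996 and 12.24, with at most 7.48 on any other array. Arrays also fell into 2 classes by the poly-A spike controls, bright on 6 normal and 5 tumour arrays and dim on 3 and 4. Tumours 6 and 8 were the most alike of all pairs within a group (r = 0.965 over genes, which are not replicates), the next tumour pair being tumours 1 and 9 at 0.923 and the closest normal pair reaching 0.956. The sources used here do not show whether tumours 6 and 8 are distinct tumours, and both were kept. Without tumour 8 there were 5 members higher and 5 lower, where 10.8% and 12.1% of all genes were. The call of Eif5b was then lost (limma adjusted p = 0.0709). The calls that changed without normal prostate 9, without it and tumours 3, 5 and 7, and without tumours 1, 4 and 9 are named below.

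Sequence upstream of the annotated start is shown for a few of these genes, to set the promoter of the factor with the largest rise beside those of the factor whose groups lay apart, of Eif4ebp2 and of genes that fell. The stretches are the 120 bases before the start, 5′ to 3′ on the gene's strand, from RefSeq on GRCm38.p6. Capitals mark matches on either strand to the E-box CACGTG, the CCAAT box CCAAT, the GC box GGGCGG, the ETS core CCGGAAG or the cyclic AMP response element TGACGTCA.
Eif5a2, chr3:28781157-28781276, plus strand: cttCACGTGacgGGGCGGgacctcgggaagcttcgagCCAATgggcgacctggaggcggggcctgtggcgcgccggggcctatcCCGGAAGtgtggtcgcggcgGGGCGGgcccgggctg
Eif4g3, chr4:137993335-137993454, plus strand: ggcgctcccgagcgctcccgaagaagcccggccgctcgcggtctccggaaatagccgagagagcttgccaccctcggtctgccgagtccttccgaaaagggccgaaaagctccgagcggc
Eif4ebp2, chr10:61452670-61452789, minus strand: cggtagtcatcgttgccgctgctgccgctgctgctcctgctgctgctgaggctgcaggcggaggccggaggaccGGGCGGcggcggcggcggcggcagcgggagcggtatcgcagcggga
Eif3m, chr2:105017028-105017147, minus strand: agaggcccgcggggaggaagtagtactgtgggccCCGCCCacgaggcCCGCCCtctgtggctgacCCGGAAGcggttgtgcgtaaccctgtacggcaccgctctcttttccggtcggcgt
Eif2ak3, chr6:70844395-70844514, plus strand: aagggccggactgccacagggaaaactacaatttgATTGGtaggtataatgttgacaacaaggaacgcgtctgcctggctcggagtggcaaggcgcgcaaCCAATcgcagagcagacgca

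The Eif5a2 stretch holds 5 matches, the Eif4g3 stretch 0, the Eif4ebp2 stretch 1, the Eif3m stretch 3 and the Eif2ak3 stretch 2. Over the 250 bases before the start, 37 of the 46 genes had a window, and the first listed window of each gene was searched. The E-box was in 6 of the 37 (16.2%) against 6.0% of 27025 windows of all genes, and the ETS core in 9 (24.3%) against 7.1%. The GC box was in 26 (70.3%) against 32.9%, the CCAAT box in 11 (29.7%) against 34.5%, and the cyclic AMP response element in 0 against 1.6%. These shares describe letters and not sites. The 27025 windows are of all genes with a window and not only of the 12793 genes kept by the filter, as the members were. The shares therefore do not compare the members with other genes kept by the filter. No window was listed for Eif4ebp1, Eif6, Eif3i and Eif2b3 among the genes called below.

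Between normal prostate and TRAMP tumour the initiation machinery moved little as a whole, and 1 member stood far from the rest. Eif4ebp1, the gene of 4E-BP1, fell 5.92-fold in the tumours, while no initiation factor gene, read from its brightest kept probe set, fell by as much as 2-fold. In all, 5 of the 46 genes rose and 6 fell by limma at an adjusted p under 0.05 over 12793 genes. That is 10.9% and 13% of the members, where 11.3% of all genes tested rose and 12.7% fell. Counted in either direction, 11 members were called and 35 were not, where 24% of all genes were called and 76% were not. In this fit the counts are therefore near the background and are not a result about these genes. Of the 117 kept probe sets 9 were higher and 13 lower, where 10.1% and 9.48% of all probe sets were. The median difference was -0.12 over the 46 members and -0.01 over all genes.

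Changes within the set were small and tightly measured. For 38 of 46 members (82.6%) the 95% interval of the difference lay within 2-fold in either direction, against 60.5% of all genes. Of the 11 members called, 2 differed by 2-fold or more, Eif4ebp1 and Eif5a2, where 5.37% of all genes fell and 5.27% rose that far and were called. The members were also brighter than most genes, with a median level of 11.18 against 9.21. Their median SD was 0.29 in normal prostate and 0.34 in tumours, against 0.37 and 0.51 over all genes.

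The count of falls was larger without 1 array, and the 11 calls of the main fit all stayed. Without normal prostate 9, 13 of 46 members were lower and 5 higher, where 14.2% of all genes were lower and 12.4% higher. The 7 genes gained were Eif2ak4, Eif2b1, Eif2b2, Eif2d, Eif3e, Eif4ebp2 and Eif5, and the median difference of the members became -0.18. Without that array the share of members lower was above that of all genes. The same was so in the fits below with 75th percentile centring and without the arrays high in seminal vesicle genes. These excesses were not tested. Rises made up 45.5% of the members' calls, and 25% after each array was shifted to a common 75th percentile, which called 12 members lower and 4 higher; over all genes that centring called 8.78% higher and 16.1% lower and took the share from 47.1% to 35.3%. Adding each array's ratio of 3′ to 5′ actin signal to the model left 2 members higher, Eif4enif1 and Eif4g3, and 2 lower, Eif4a2 and Eif4ebp1, where 5.98% of all genes were higher and 6.79% lower. The ratio was itself mostly lower on tumour arrays. On the log2 scale it ran from 0.46 to 2.18 there and from 0.31 to 2.48 on normal arrays. Using the actin ratio as a covariate therefore cannot cleanly separate its part from the group difference. Without normal prostate 9 and tumours 3, 5 and 7, 6 members were higher and 13 lower, where 14.1% and 16.6% of all genes were; Eif1ax and Eif4h were called higher, Eif1a, Eif2ak4, Eif2d, Eif3e, Eif4ebp2, Eif5 and Eif5a were called lower, and the call of Eif2b3 was lost. Without tumours 1, 4 and 9, 3 members were higher and 5 lower, where 9.79% and 9.76% of all genes were; the calls of Eif5a2, Eif2b3, Eif2ak3, Eif3i and Eif5b were lost, and Eif1b and Eif2ak4 were called lower.

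**Figure D1:**
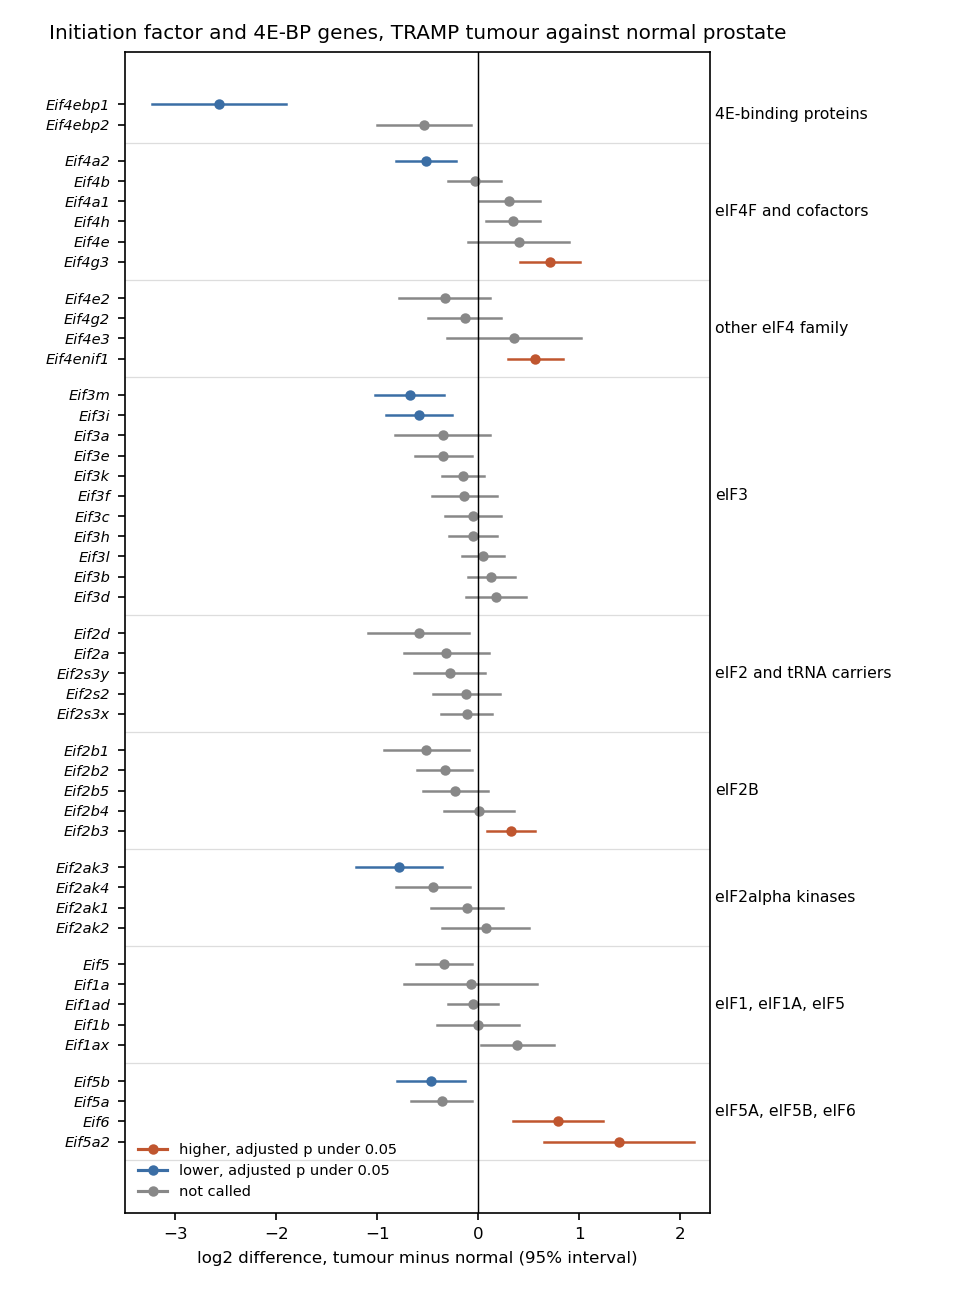
Points are log2 differences, tumour minus normal prostate, for 46 initiation factor and 4E-BP genes grouped by role, with 95% intervals from limma (9 arrays a group). Eif4ebp1 lies at -2.57, Eif5a2 at 1.40, and all other genes lie between -0.79 and 0.79.

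The 4E-BPs differed between the groups unequally. On normal prostate arrays Eif4ebp1 ran from 12.06 to 14.50 with a median of 14.04. In tumours it ran from 10.09 to 11.98 with a median of 11.17, so all 9 tumours lay below every normal array. Normal prostates 9 and 3 were the lowest normal arrays, at 12.06 and 12.58. The highest tumour was tumour 5 at 11.98, and the lowest were tumours 9 and 1 at 10.09 and 10.46.

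The mean of Eif4ebp1 fell from 13.68 ± 0.827 to 11.11 ± 0.552, a log2 difference of -2.57 ± 0.315 SE with a 95% interval of -3.23 to -1.91 (limma adjusted p = 5.45e-05). Its groups lay apart, as did those of 0.93% of all genes with tumours below. All 3 probe sets fell, with log2 differences of -2.57, -2.23 and -1.05 (limma adjusted p over probe sets 5.8e-05, 7.81e-05 and 6.45e-04). The smallest of these changes came from the dimmest probe set, at 9.05 ± 0.337 in normal prostate and 7.996 ± 0.384 in tumours, and its groups overlapped.

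Eif4ebp2, which encodes the related 4E-BP2, overlapped between the groups. It ran from 10.09 to 11.95 with a median of 11.40 in normal prostate and from 10.18 to 11.38 with a median of 10.94 in tumours. The difference was -0.54 ± 0.221 SE (95% interval -0.999 to -0.07, limma adjusted p = 0.0836). Without normal prostate 9, the lowest normal array, it was -0.69 (limma adjusted p = 0.00736), and without that array and tumours 3, 5 and 7 it was -0.84 (limma adjusted p = 0.00349). Without tumours 1, 4 and 9 it was -0.35 (limma adjusted p = 0.304). Among its 4 kept probe sets 1 was called lower, and all 4 had a difference below 0, from -0.54 to -0.28. Tumours 1 and 9 were the lowest tumours for this gene too, at 10.18 and 10.20.

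**Figure D2:**
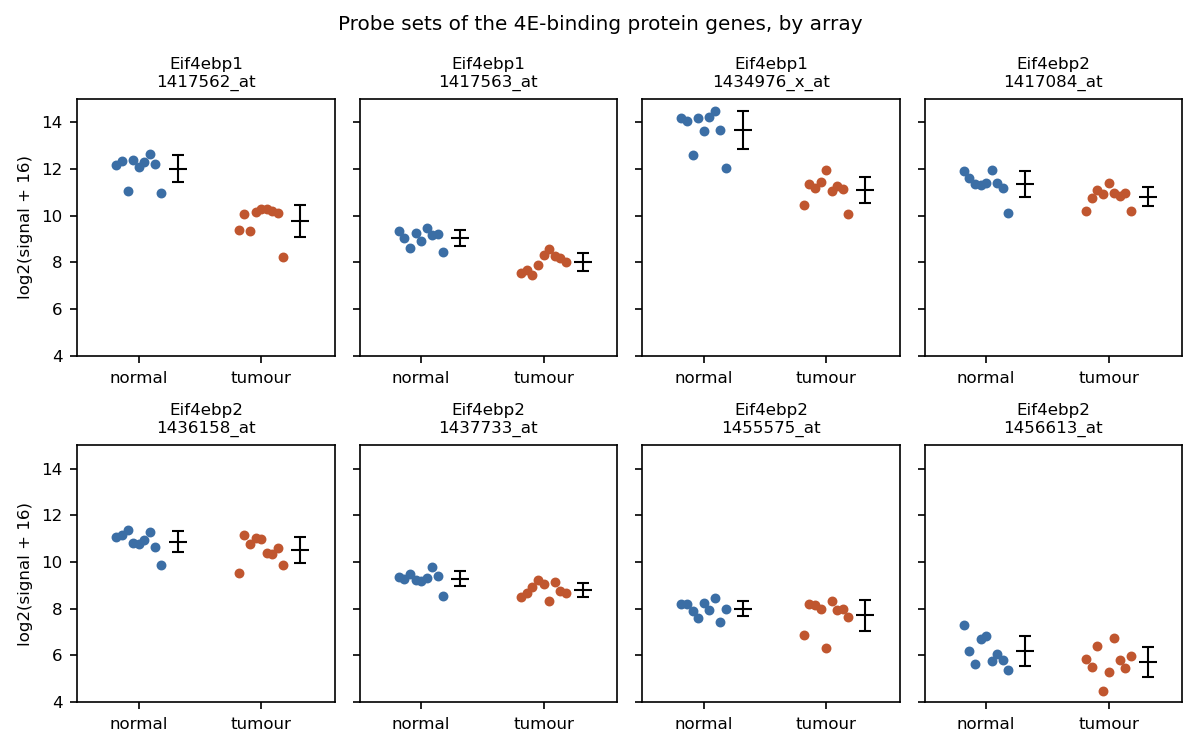
Each panel is a probe set of Eif4ebp1 (3) or Eif4ebp2 (5), with log2(signal + 16) of each array by group, and the mean with SD at the right of each group. Tumours lie wholly below normal prostate in the probe sets of Eif4ebp1 with mean differences of -2.57 and -2.23, and the groups overlap in every Eif4ebp2 probe set; the last one did not pass the filter.

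Marker genes of several cell types moved with Eif4ebp1, and in whole tissue fewer cells of a type and less RNA per cell cannot be told apart. The lists with no call were luminal epithelium with 5 genes tested, basal epithelium with 2 and smooth muscle with 6. Skeletal muscle had 1 of 3 tested genes lower and urothelium 1 of 4. Seminal vesicle had 1 of 3 tested genes higher and neuroendocrine 1 of 2. Luminal scores were 12.82 to 13.86 in normal prostate. In tumours they were 13.25 to 13.71, except in tumours 1 and 9, at 9.47 and 7.05. Of 8 listed prostate secretory genes 7 had a probe set, and their summed signal ran from 1322 to 192410 in normal prostate and from 291 to 46220 in tumours. None was at 0, but Pbsn, the gene of probasin, was under the 40th percentile on all 9 tumour arrays, and all 5 that could be tested fell. The fall was not uniform over tumours. Tgm4, not tested, was 10.76 and 10.68 in tumours 6 and 8, at most 7.28 in the other tumours and at most 9.45 in normal prostate. Spink1 was 15.48 and 13.64 in tumours 5 and 3 and at most 8.89 in the other tumours, with normal prostate at 4.60 to 16.24. Normal prostate 9, with a secretory score of 6.73 inside the tumour range of 5.48 to 8.45, had the lowest normal level of Eif4ebp1, 12.06. The part of secretory epithelium in the fall was not tested. In the other direction, all 7 dividing-cell genes rose, with scores of 9.18 to 12.69 in tumours and 6.81 to 8.21 in normal prostate and summed signals of 5149 to 56012 and 1040 to 2943. Macrophage genes rose in 3 of 7, with scores of 9.13 to 11.87 in tumours and 7.76 to 10.04 in normal prostate and summed signals of 4615 to 35525 and 1701 to 9117. Neither list had a gene at 0, and the part of dividing cells and macrophages in the changes was not tested.

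Adipocyte genes were lower in the tumours as well, 5 of 5 tested, with 6 of 8 listed genes on the array. Their summed signal ran from 478 to 90284 in normal prostate and from 492 to 20736 in tumours, none was at 0, and Lep was under the 40th percentile on all 9 tumour arrays. Normal prostate 7, the lowest normal array for these genes with a score of 6.10, had the highest level of Eif4ebp1, 14.50. Normal prostate 2, the highest for these genes, and normal prostate 4, the next with a score of 12.72, had Eif4ebp1 at 14.04 and 14.19. With the adipocyte score as a covariate the difference of Eif4ebp1 was -3.11 (limma adjusted p = 0.00283), and within the bright and dim spike control classes it was -2.53 and -2.52, the second of them uncalled at 3 against 4 arrays (limma adjusted p = 0.00169 and 0.266). With the actin ratio as a covariate it was -2.14 (limma adjusted p = 4.54e-04). The adipocyte score itself differed between the groups, so using it as a covariate cannot separate a part of adipocytes from the group difference. The part of adipocytes was not tested.

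**Figure D3:**
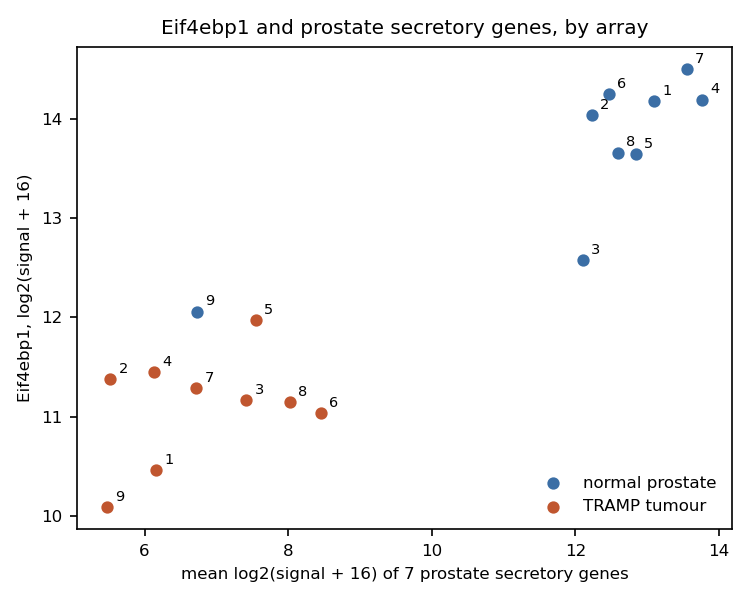
Each point is an array, numbered within its group, with the mean log2(signal + 16) of 7 prostate secretory genes on the horizontal axis and Eif4ebp1 on the vertical axis. Normal prostate 9 sits at 6.73 and 12.06, among the tumours in secretory genes and just above the highest tumour, at 11.98, in Eif4ebp1.

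In the cap-binding complex eIF4F and its cofactors, 1 of 6 measured genes rose and 1 fell. Eif4e, the gene of the cap-binding protein that 4E-BPs hold, ran from 10.34 to 11.25 with a median of 10.86 in normal prostate and from 10.14 to 12.03 with a median of 11.28 in tumours. Tumours 9, 1 and 2 were highest at 12.03, 11.98 and 11.90, while tumours 8 and 6 were at 10.14 and 10.38, near or below the lowest normal array. The difference was 0.40 ± 0.240 SE (95% interval -0.10 to 0.90, limma adjusted p = 0.234). Within the bright spike control class alone it was 0.66 (limma adjusted p = 0.0293), and without tumours 1, 4 and 9 it was 0.15 (limma adjusted p = 0.687). In the dim class the groups overlapped. Normal prostates 7, 8 and 9 had Eif4e at 10.34, 10.63 and 11.25, and tumours 6 to 9 at 10.38, 10.86, 10.14 and 12.03. Eif4e was not called there. Its other 3 probe sets gave 0.21, 0.01 and -0.43, and none was called; the mean over all 4 was 0.05.

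Eif4g3 encodes a scaffold of the eIF4G family and was the only initiation factor gene whose groups lay apart in its brightest kept probe set. It ran from 10.32 to 10.74 with a median of 10.53 in normal prostate and from 10.82 to 11.95 with a median of 11.08 in tumours. Every tumour was above every normal array, with tumour 7 the highest. The rise was 0.71 ± 0.140 SE (limma adjusted p = 0.00159), where 1.45% of all genes had every tumour above every normal array. Its other 2 kept probe sets were dimmer and gave -0.26 and -0.09 with no call, and the mean over the 3 was 0.12 (limma adjusted p = 0.423), so the rise was seen in 1 probe set. Eif4g1 is not analysed here.

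The helicase genes of eIF4F went in different directions. Eif4a2 fell from a median of 13.67 (13.29 to 13.93) in normal prostate to 13.29 (12.58 to 13.66) in tumours, a difference of -0.52 ± 0.141 SE (limma adjusted p = 0.0128). It has 1 probe set, and 4 of 9 tumours were below every normal array; under quantile normalization the difference was -0.33 (limma adjusted p = 0.123). Eif4a1 was 12.27 to 12.94 with a median of 12.69 in normal prostate and 12.62 to 13.49 with a median of 13.07 in tumours, a difference of 0.31 ± 0.146 SE (95% interval 0.0045 to 0.61, limma adjusted p = 0.129). Another of its 3 probe sets was called higher by 0.50 (limma adjusted p over probe sets 0.0323). Under quantile normalization the gene was called higher, by 0.50 (limma adjusted p = 0.0174).

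The helicase cofactor genes Eif4h and Eif4b had differences of 0.34 (limma adjusted p = 0.0551) and -0.04 (limma adjusted p = 0.865). Of 5 kept probe sets of Eif4h, 2 were called higher, by 0.58 and 0.62. Of 3 kept probe sets of Eif4b, 1 was called lower, by 1.02 on the log2 scale, while the brightest differed by -0.04. For both genes the call therefore depends on which probe set stands for the gene.

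Of the eIF4 family members outside eIF4F, 1 of 4 rose. Eif4enif1 encodes 4E-T, a protein that binds eIF4E and carries it into the nucleus. It ran from 9.78 to 10.43 with a median of 10.08 in normal prostate and from 10.41 to 11.20 with a median of 10.56 in tumours, with 8 of 9 tumours above every normal array. The rise was 0.57 ± 0.131 SE (limma adjusted p = 0.00488), from its only probe set. Eif4e2, a cap-binding relative of eIF4E, Eif4e3, another, and Eif4g2, a scaffold that lacks the eIF4E-binding part, ranged in difference from -0.33 to 0.35 with no call.

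**Figure D4:**
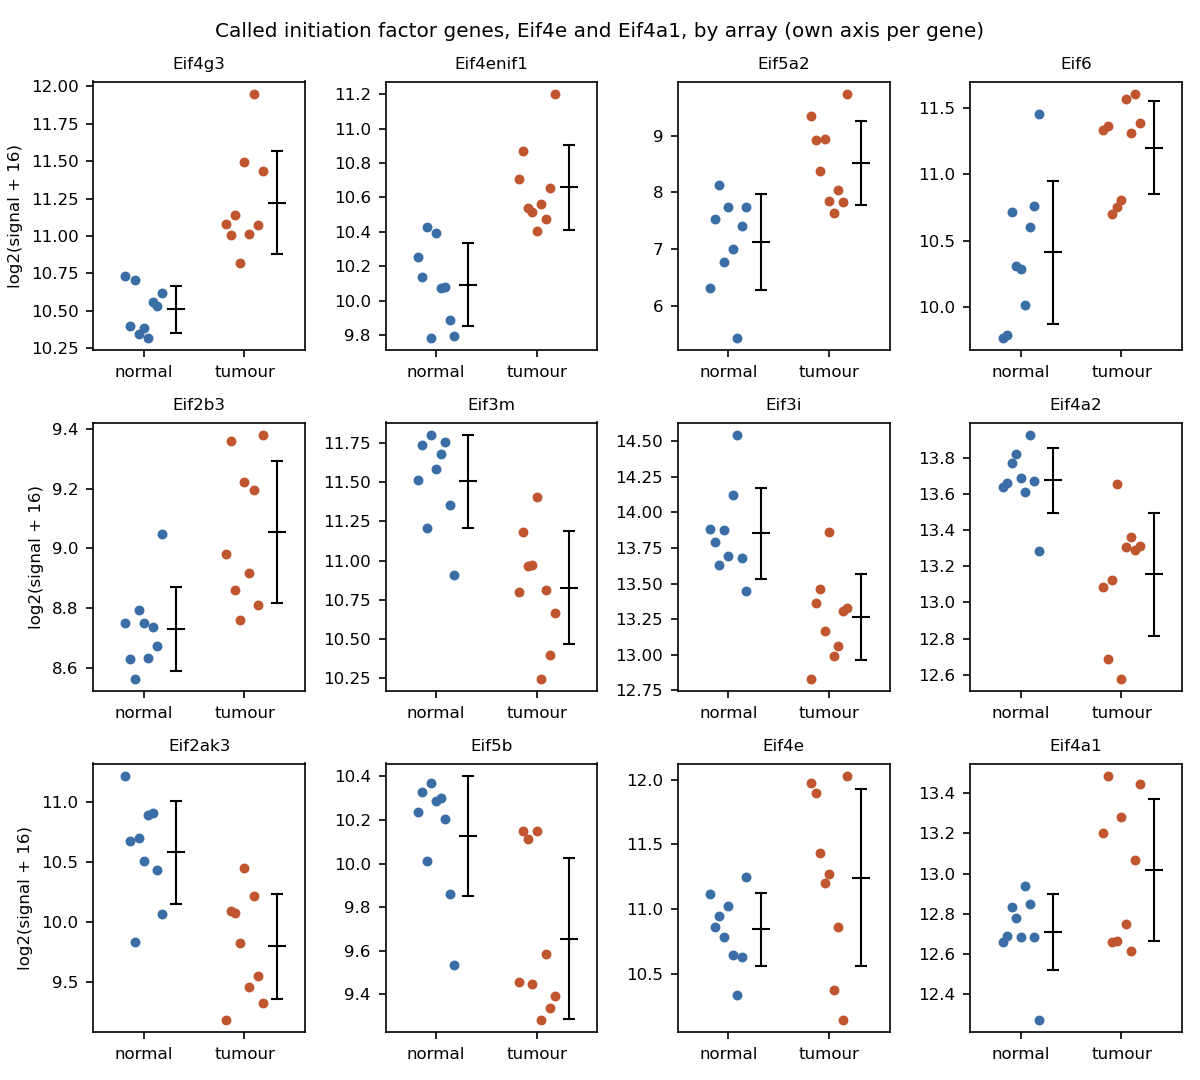
Log2(signal + 16) of each array by group for the 10 called factor and kinase genes, Eif4e and Eif4a1, with the mean and SD beside each group; each panel has its own vertical axis. Only for Eif4g3 are the 2 groups fully apart.

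The eIF3 complex, the largest of the factors, had 11 measured genes, of which 2 fell and 0 rose. Differences ran from -0.68 for Eif3m to 0.18 for Eif3d, with a median of -0.14. Eif3m was 10.91 to 11.80 with a median of 11.58 in normal prostate and 10.24 to 11.41 with a median of 10.81 in tumours. Its fall of 0.68 ± 0.164 SE (limma adjusted p = 0.00631) put 5 of 9 tumours below every normal array, and a dim second probe set gave -0.25 with no call. Averaged over both, the difference was -0.46 (limma adjusted p = 0.0936).

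Eif3i, whose product is a propeller-shaped eIF3 subunit, was lower with both of its probe sets. The brighter ran from 13.45 to 14.55 with a median of 13.80 in normal prostate and from 12.83 to 13.86 with a median of 13.31 in tumours. It fell by 0.59 ± 0.156 SE (limma adjusted p = 0.0109), with 7 of 9 tumours below every normal array. The other probe set fell by 0.67 (limma adjusted p over probe sets 0.00154), and there all tumours, at 12.25 to 12.91, were below all normal arrays, at 12.91 to 13.60. With the actin ratio as a covariate the gene's difference was -0.36 (limma adjusted p = 0.0855), and without tumours 1, 4 and 9 it was -0.51 (limma adjusted p = 0.0506).

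The other 9 eIF3 genes were not called. Eif3a, the large scaffold subunit, had the widest interval of the complex, -0.82 to 0.12, and Eif3b, Eif3c, Eif3d, Eif3f, Eif3h, Eif3k and Eif3l had intervals within 0.48 of 0 on the log2 scale. Eif3e differed by -0.35 (limma adjusted p = 0.0721), and by -0.44 without normal prostate 9 (limma adjusted p = 0.0085).

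In the eIF2 branch, none of the 5 genes for eIF2 subunits and other initiator tRNA carriers was called, with differences from -0.59 to -0.12. The X-linked and Y-linked copies of the gamma subunit gene, Eif2s3x and Eif2s3y, differed by -0.12 and -0.28. Eif2d, whose product can carry initiator tRNA without eIF2, had the largest difference, -0.59 (limma adjusted p = 0.0796). It measured 9.30 on normal prostate 9 and at least 10.66 on the other normal arrays. Without normal prostate 9 it fell by 0.79 (limma adjusted p = 0.0013).

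Among the 5 genes of eIF2B, which reloads eIF2 with GTP, 1 rose. Eif2b3 was 8.56 to 9.05 with a median of 8.74 in normal prostate and 8.76 to 9.38 with a median of 8.98 in tumours. The rise of 0.32 ± 0.115 SE sat at the edge of the threshold (limma adjusted p = 0.0479), was not called over probe sets, lost its call in 13 of 18 fits that left out 1 array, and was 0.33 without tumours 1, 4 and 9 (limma adjusted p = 0.0685). Eif2b1 and Eif2b2 differed by -0.51 and -0.33 (limma adjusted p = 0.0688 and 0.0680), and were called lower without normal prostate 9.

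The eIF2alpha kinases each answer a different stress, and 1 of 4 fell. Eif2ak3 encodes PERK, the kinase that senses unfolded protein in the endoplasmic reticulum. It ran from 9.83 to 11.22 with a median of 10.68 in normal prostate and from 9.18 to 10.45 with a median of 9.82 in tumours. It fell by 0.79 ± 0.205 SE, 1.72-fold (limma adjusted p = 0.00982), with 5 of 9 tumours below every normal array and tumours 1 and 9 the lowest. The difference was -1.08 without normal prostate 9 and tumours 3, 5 and 7 (limma adjusted p = 0.0015). It was -0.60 with the actin ratio as a covariate and -0.71 within the bright spike control class, neither called (limma adjusted p = 0.0739 and 0.0903). Without tumours 1, 4 and 9 it was -0.61 (limma adjusted p = 0.0585).

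The other kinase genes were not called. Eif2ak4, for the amino acid sensor GCN2, differed by -0.45 (limma adjusted p = 0.0702), and fell by 0.56 without normal prostate 9 (limma adjusted p = 0.012) and by 0.62 without tumours 1, 4 and 9 (limma adjusted p = 0.0274). Eif2ak1, for the haem-regulated kinase, and Eif2ak2, for the kinase activated by double-stranded RNA, differed by -0.11 and 0.08, with 95% intervals of -0.47 to 0.25 and -0.35 to 0.51.

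Factors that act at subunit joining and after it held the largest rise of the set. Eif5a2 encodes the second eIF5A protein, a hypusine-carrying factor with narrow normal expression. It ran from 5.43 to 8.14 with a median of 7.40 in normal prostate, where it was under the 40th percentile on 4 arrays, and from 7.64 to 9.74 with a median of 8.38 in tumours. Tumours 9, 1, 4, 2 and 3 lay above every normal array and the other 4 overlapped with them. The rise was 1.40 ± 0.354 SE (limma adjusted p = 0.00846), or 1.07 with dim values raised to the 40th percentile. Without tumours 1, 4 and 9 it was 0.99 and not called (limma adjusted p = 0.0613). A second probe set gave -0.13 with no call, and the mean of both was 0.63 (limma adjusted p = 0.0713).

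Eif6 encodes a factor that keeps the large subunit from joining too early. It ran from 9.77 to 11.45 with a median of 10.31 in normal prostate and from 10.70 to 11.61 with a median of 11.33 in tumours. The highest normal array was number 9, and only 2 tumours were above it. The rise was 0.79 ± 0.212 SE (limma adjusted p = 0.0119), but a second probe set gave -0.08 with no call, and the mean of both was 0.36 (limma adjusted p = 0.0712).

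Eif5b, the GTPase of subunit joining, was 9.53 to 10.37 with a median of 10.24 in normal prostate and 9.28 to 10.15 with a median of 9.46 in tumours. It fell by 0.47 ± 0.162 SE (limma adjusted p = 0.0416), with 5 of 9 tumours below every normal array, lost its call in 12 of 18 fits that left out 1 array, and was -0.36 without tumours 1, 4 and 9 (limma adjusted p = 0.182). Eif5a, the widely expressed relative of Eif5a2, differed by -0.36 (limma adjusted p = 0.0763), with 7 of 9 tumours below every normal array. In the eIF1, eIF1A and eIF5 group none of 5 genes was called, with differences from -0.34 for Eif5 to 0.39 for Eif1ax. Eif1ax, the X-linked eIF1A gene, had 2 dimmer probe sets that were called higher, by 1.44 and 0.70 (limma adjusted p over probe sets 0.0107 and 0.0125).

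Some factors with no difference of means varied widely from tumour to tumour. Eif1a, which encodes an eIF1A protein, lay between 10.73 and 11.00 on all normal arrays (SD 0.0832) but between 9.51 and 12.18 in tumours (SD 0.987). It was high in tumours 5, 7 and 3, at 12.18, 12.14 and 11.61, and low in tumours 9, 1, 6 and 8, at 9.51, 9.92, 10.03 and 10.16. Tumours 3, 5 and 7 are those with the highest seminal vesicle scores, whereas normal prostate 9, with a score of 12.09, measured 10.89. Without those 4 arrays Eif1a was lower in tumours by 0.65 on the log2 scale (limma adjusted p = 0.0233). Tumours 3, 5 and 7 held the highest values of this gene, so leaving them out lowers the tumour mean by itself. No conclusion is drawn from that fit. The part of seminal vesicle tissue was not tested.

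Eif1b, a close relative of the scanning factor eIF1, was 10.95 to 11.23 on normal arrays (SD 0.0974) and had an SD of 0.566 in tumours. It stood at 12.08 and 11.97 in tumours 1 and 9, with at most 11.16 in the other tumours and 6 of 9 tumours below every normal array. Tumours 1 and 9 were also highest for Chga, at 11.50 and 12.24, and had luminal epithelial scores of 9.47 and 7.05 where the other tumours had at least 13.25. Tumour 4, with Chga at 9.996, had Eif1b at 11.16 and a luminal score of 13.34. Without tumours 1, 4 and 9 Eif1b was lower in tumours by 0.33 on the log2 scale (limma adjusted p = 0.0369). These arrays were singled out after their values were seen, and the part of neuroendocrine cells was not tested.

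**Figure D5:**
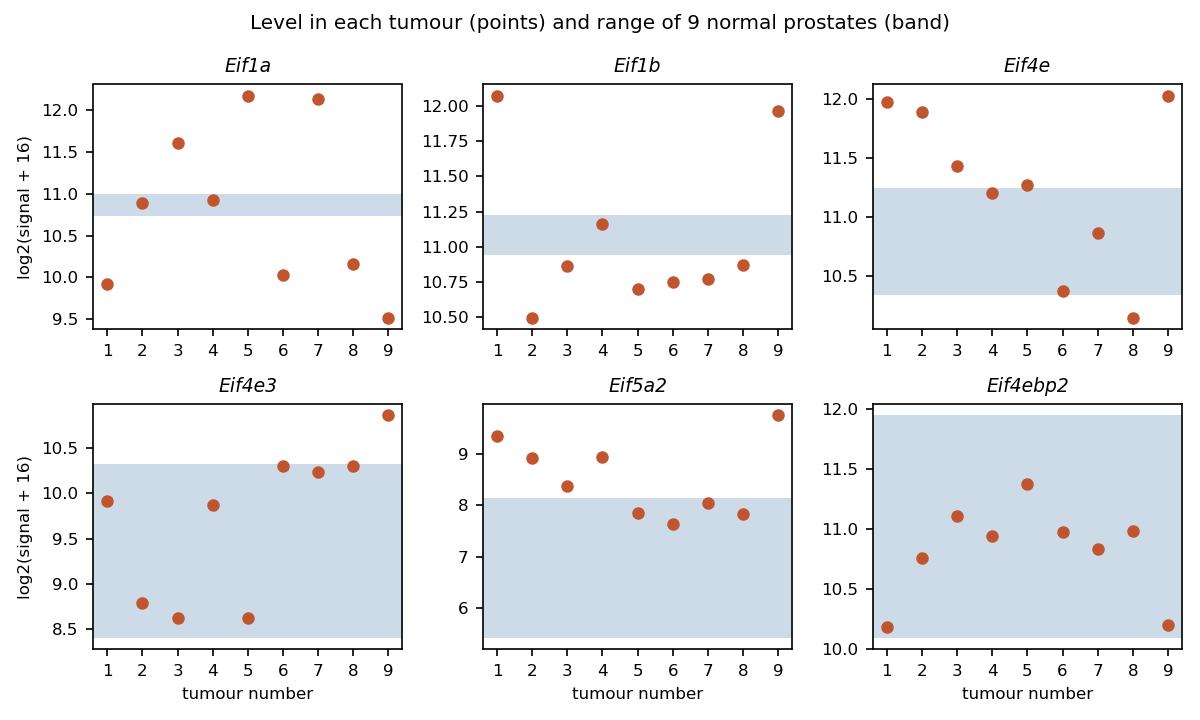
Points are log2(signal + 16) of 6 genes in each of 9 tumours, by tumour number on the horizontal axis, and bands span the lowest to the highest of 9 normal prostates. Eif1a is above the band in tumours 3, 5 and 7, and Eif1b is above it in tumours 1 and 9.

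Other genes of the pathway were called no more often than genes in general by their counts. They came from 6 lists chosen with earlier results of these data known. Of 69 listed genes 64 were tested, 3 rose (4.69%) and 8 fell (12.5%), where 11.3% and 12.7% of all genes did, with a median difference of -0.11. The 11 calls became 7 without normal prostate 7, 7 without tumour 1, 7 without tumours 1, 4 and 9, and 4 with the actin ratio as a covariate. Of 23 genes upstream of the 4E-BPs in mTORC1 signalling 1 rose and 1 fell. Rhebl1, a relative of the mTORC1 activator Rheb, rose from 7.78 ± 0.319 to 9.59 ± 1.07 (limma adjusted p = 0.00145). Deptor, an inhibitory partner of mTOR, fell from 10.82 ± 0.404 to 9.85 ± 1.01 (limma adjusted p = 0.0461).

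Of 14 regulators of eIF4F and of mRNA circularization 4 fell (28.6%) and 1 rose (7.14%), where 12.7% and 11.3% of all genes did. The departure of this short list from those shares was not tested. Pdcd4, which blocks the eIF4A helicase, fell from 13.40 ± 0.635 to 11.79 ± 1.12 (limma adjusted p = 0.00763). The poly(A)-binding protein gene Pabpc4 fell by 0.55 ± 0.130 SE (limma adjusted p = 0.00542), with its groups apart, as were those of 0.93% of all genes with tumours below. Dhx29, a helicase of scanning, fell by 0.43 (limma adjusted p = 0.0352), and Fmr1, for the translational repressor FMRP, rose by 0.86 (limma adjusted p = 0.0253). The fourth fall was Paip2b, at -0.61 (limma adjusted p = 0.0410).

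Downstream of eIF2, 1 of 10 stress response genes rose and 1 fell. Atf5, a transcription factor whose mRNA is translated under stress, rose by 1.18 ± 0.240 SE (limma adjusted p = 0.00208). Nupr1, a stress-induced chromatin protein gene, fell from 13.71 ± 1.05 to 10.23 ± 1.80 (limma adjusted p = 0.00107). Among 6 genes of reinitiation and ribosome recycling the eIF5 mimic gene Bzw2 fell by 0.51 (limma adjusted p = 0.0288). Among 10 elongation and termination genes the elongation factor gene Eef2 fell by 0.56 (limma adjusted p = 0.0237), and neither of the 2 genes for the enzymes that make hypusine was called.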

How the data were processed

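The deposited values are MAS5 probe set intensities on a linear scale, per the submitters' processing notes, which name no MAS5 version. Each of the 18 arrays had a 2% trimmed mean of 500, as MAS5 scaling of a whole array gives. Probe sets were named from the platform annotation, where 34945 name 1 gene. The members and gene lists were chosen with earlier results of these data known.

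Signals were taken as log2(signal + 16) and not normalized again. Probe sets above the 40th percentile of their array on at least 9 of 18 arrays were kept, and each gene was represented by its kept probe set with the highest mean. limma 3.58.1 in R 4.3.3 (lmFit, eBayes, group only, two-sided) was fitted to all 12793 genes, with Benjamini-Hochberg adjustment at 0.05, and separately to 27292 probe sets. The code was tested on simulated data. Array number limits the precision. Marker scores are means of log2 values over listed genes with a probe set, without the filter. Genes given in full were the 4E-BP genes, Eif4e, Eif4a1, members whose groups lay apart, and up to 8 largest rises and falls past the threshold; of each pathway list, up to 4 called genes by absolute t. Paip2b, Eif1a and Eif1b, and other members given with values outside this rule, were picked after their values were seen. Alternatives comprised pseudocounts, filters, scalings, probe set choice, spike class, replicate block, covariates and omission of arrays; omission of 7 arrays high in genes of other tissues, and of tumours 1, 4 and 9, was added after seeing the data. Figures were drawn with matplotlib 3.10.9.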

Additional observations from a re-analysis of the deposited data

Results flagged for a closer look

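Normal prostate 9 stood apart from the other 8 normal arrays in 4 of the 14 normal groups checked for a lone high or low array, where chance marks about 1 group in 20; none of the 14 tumour groups held such an array. It measured 10.09 for Eif4ebp2 (next lowest 11.16), 12.27 for Eif4a1 (next lowest 12.66), 13.29 for Eif4a2 (next lowest 13.61) and 9.05 for Eif2b3 (next highest 8.79). All of these came from 1 array, which also carried high seminal vesicle genes, so they are not independent of each other.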

How the results depend on the processing

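Eif4ebp1 kept its direction and its call in 17 of 18 alternatives (-3.22 to -1.95) and in all 18 fits that left out 1 array (-2.77 to -2.44); in the dim spike class alone it was -2.52 without a call. No alternative value could be had for Eif4ebp3. Eif4ebp2 gained a call in the bright spike class (-0.71), without arrays high in seminal vesicle genes (-0.84), and without 7 arrays (-0.86). The other 15 of 18 alternatives left it uncalled. Its smallest difference among them was -0.14, in the dim spike class, and the highest limma adjusted p was 0.902. With 1 array left out Eif4ebp2 ran from -0.69 to -0.46. Eif6 reversed to -0.078 without probe sets that can match several transcripts, which leaves its dimmer probe set.

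The dim class alone, at 3 against 4 arrays, called 0 genes by limma, members and probe sets included; at an unadjusted p under 0.05 it held 5 members and 1639 genes. The actin covariate gave 2 members higher, 2 lower, 9 member probe sets, 4 pathway genes, and 765 genes higher and 869 lower in all. The adipocyte covariate gave 1 member higher and 5 lower, where 6.22% and 5.82% of all genes were. It kept 4 of the 11 calls of the main fit, so at most 1 of the 5 rises kept its call. It called 13 member probe sets, and 796 genes higher and 745 lower in all. Members lower numbered 12 with 75th percentile centring, 13 without arrays high in seminal vesicle genes and 12 without 7 arrays, where 16.1%, 16.6% and 15.8% of all genes were lower; member probe sets called were 37 without the seminal vesicle arrays. Without tumours 1, 4 and 9, 3 members were higher and 7 pathway genes were called. Pathway genes called were 5 in the bright class. With 1 array left out, members higher ran from 4 to 6 and lower from 5 to 13, the latter without normal prostate 9; member probe sets from 19 to 35; pathway genes from 7 to 14; all genes higher from 1148 to 1591 and lower from 1306 to 1820. Pathway genes called were 7 without normal prostate 7 and also 7 without tumour 1.

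Same-numbered samples mostly did not deviate together (correlations -0.106 to 0.314, 1 of 9 pairs over 0.1). Low correlations cannot show that the samples were unpaired, so a pairing by number was neither seen nor excluded. With the replicate number as a block, 4 members were higher and 5 lower. The causes of these changes were not tested.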
